A study of Rattus norvegicus with 10 samples.

Results

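The transcription factors that give acinar and duct cells of the salivary gland their identity were examined as a set of 10 genes, namely Bhlha15, Spdef, Creb3l1, Ehf, Elf5, Tfcp2l1, Foxi1, Ascl3, Tp63 and Sox2. All non-control probes whose RefSeq accession carries one of these symbols were taken, which gave 15 probes for 9 of the 10 genes, out of 30367 probes and 15168 named genes. No probe matched Ascl3, which is not analysed here. All 15 probes were well above background on all 10 arrays, so that every measured member passed the filter, and 9 of the 14711 genes tested were members. The samples were submandibular glands of 5 spontaneously hypertensive rats (SHR), an inbred strain with inherited high blood pressure, and of 5 Wistar Kyoto (WKY) rats, its normotensive control strain. All rats were males aged 14 weeks, no treatment or transgene is given in the labels, and the RNA of each was hybridised to its own one-colour array. Arrays carry the strain and the number pair of the sample title as their name, as in SHR 3-3.

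The submandibular gland is built from acini, which make and secrete saliva proteins and fluid, and from ducts, which change the salt content of that fluid and in rodents store kallikreins and growth factors in granular duct cells. Bhlha15 (Mist1) organises the secretory machinery of acinar cells, Spdef drives mucous and other secretory programmes, and Creb3l1 (OASIS) is a transcription factor held in the endoplasmic reticulum that is released by cleavage. Ehf and Elf5 are epithelial members of the ETS family. Tfcp2l1 belongs to the CP2 branch of the grainyhead family and marks duct epithelium, Foxi1 and Ascl3 are known from ionocytes, the proton and chloride handling cells of ducts, and Tp63 and Sox2 mark basal and progenitor cells.

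Promoter sequences, 250 bases before to 50 after the start site, were held for 8 of the 10 members in the RefSeq table of assembly GRCr8. Those of the 2 duct factors that lay farthest from their strain on array SHR 3-3, Tfcp2l1 and Foxi1, and of 2 acinar factors that lay on the opposite side there, Bhlha15 and Spdef, are shown so that the pairs can be set against each other. They lie at chr13:32286393-32286692 on the plus strand (Tfcp2l1), chr10:19314356-19314655 on the minus strand (Foxi1), chr12:15538250-15538549 on the minus strand (Bhlha15) and chr20:5787636-5787935 on the minus strand (Spdef). Each is given 5′ to 3′ along its gene, and capitals mark matches to the 6 motifs searched.
Tfcp2l1: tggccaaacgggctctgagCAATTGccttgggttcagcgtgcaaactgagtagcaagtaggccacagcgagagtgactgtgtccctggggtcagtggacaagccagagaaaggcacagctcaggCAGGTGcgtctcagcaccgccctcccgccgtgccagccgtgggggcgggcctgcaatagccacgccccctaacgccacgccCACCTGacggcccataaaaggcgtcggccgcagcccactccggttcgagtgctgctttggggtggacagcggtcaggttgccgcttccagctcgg
Foxi1: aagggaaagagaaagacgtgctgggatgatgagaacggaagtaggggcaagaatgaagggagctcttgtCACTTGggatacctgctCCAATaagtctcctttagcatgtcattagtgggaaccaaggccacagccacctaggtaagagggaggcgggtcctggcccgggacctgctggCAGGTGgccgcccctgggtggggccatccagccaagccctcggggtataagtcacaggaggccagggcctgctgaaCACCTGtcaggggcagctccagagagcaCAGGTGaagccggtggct
Bhlha15: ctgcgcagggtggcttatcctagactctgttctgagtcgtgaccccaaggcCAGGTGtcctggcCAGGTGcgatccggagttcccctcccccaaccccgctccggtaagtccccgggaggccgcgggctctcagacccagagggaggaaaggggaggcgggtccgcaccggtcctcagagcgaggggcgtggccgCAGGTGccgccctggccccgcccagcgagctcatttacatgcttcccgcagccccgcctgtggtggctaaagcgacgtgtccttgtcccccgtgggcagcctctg
Spdef: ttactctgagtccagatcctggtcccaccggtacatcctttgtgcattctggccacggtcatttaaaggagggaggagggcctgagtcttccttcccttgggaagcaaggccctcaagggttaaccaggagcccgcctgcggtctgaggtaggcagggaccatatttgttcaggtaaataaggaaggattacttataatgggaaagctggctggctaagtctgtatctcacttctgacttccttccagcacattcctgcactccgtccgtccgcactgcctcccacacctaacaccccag
Motifs were searched on both strands. The E-box CANNTG, bound by basic helix-loop-helix factors such as Bhlha15 and Ascl3, occurred 3 times in the Tfcp2l1 promoter, 4 times in that of Foxi1, 3 times in that of Bhlha15 and 0 times in that of Spdef; 72.1% of all 33469 promoters of this length hold it. The CCAAT box (CCAAT, in 37.5% of promoters) occurred once, in Foxi1. The 4 other motifs, the TATA box TATAAA (14.2% of promoters), the forkhead motif TGTTTAC (3.78%), the ETS motif CCGGAAGT (3.81%) and the stress-response core TGACGTG (1.81%), had no match in these 4 windows, and no 2 of the 6 motifs overlapped where they matched. The share of G and C was 65.0% in Tfcp2l1, 59.7% in Foxi1, 69.0% in Bhlha15 and 53.7% in Spdef, beside a median of 51.7% over all promoters. The matches describe these letters only, and no binding was measured.

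Values are log2 processed intensities after each array's 75th percentile was subtracted, so that 0 is the level of that percentile. Levels are compared within a probe, never between genes, except that a sum over a list weighs its brighter probes more. Where a gene has 2 probes, the brighter one stands for it unless stated. SHR 3-3 was unlike the rest of its strain, in these genes as in the whole series. On it 2.86% of all genes were 2-fold or more under the average of the remaining SHR arrays, against 0.211% to 0.306% for each other SHR array, and its 75th percentile (333), its median intensity (113) and its share of spots well above background (94.8%) were the lowest of the 10 arrays. By scan time, SHR 2-3, 3-1, 3-3 and 3-4 were on slide 1 and WKY 1-2 and 1-3 on slide 3, and only slide 2 held both strains (SHR 2-1; WKY 1-5, 4-1 and 4-2), so that strain and slide largely cannot be told apart. The members' strain values are therefore given with and without SHR 3-3. The gland is a mixture, and in it fewer cells of a type cannot be told apart from less RNA per cell.

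The comparison the labels set up is SHR against WKY, asked here of each factor. None of the 9 measured members differed between strains past the threshold of a limma adjusted p of 0.05, where 4.36% of all genes tested did (1.51% higher and 2.85% lower in SHR); adjusted p ran from 0.176 to 0.664. With the slide as a random block 2 passed, Bhlha15 (limma adjusted p = 0.0227) and Tp63 (adjusted p = 0.0493). That fit called 1350 genes higher and 2101 lower of the 14711 tested, against 222 and 419 without a block. With the slide as a fixed block the difference rests on SHR 2-1, the only SHR array that shares a slide with WKY. That fit therefore cannot decide whether a member differs. At an unadjusted limma p below 0.05 there were 2 members, Bhlha15 and Tp63, against 20.3% of all genes. The exact permutation test also had these 2 below 0.05. In 0 of 9 members did the strains fail to overlap, against 7.25% of all genes. The members' median log2 difference, SHR minus WKY, was 0.18, beside −0.02 over all genes, with 6 members above 0 and 3 below; without SHR 3-3 the members' median was 0.02 and 0 of 9 passed, where 4.92% of all genes did. At an unadjusted limma p below 0.05 there were then also 0 of 9 members, against 20.9% of all genes. These counts take the brighter probe of each gene. Counted by probe, 4 of 15 member probes were below 0.05 over all arrays, against 19.2% of all probes. Without SHR 3-3 there were 3 of 15 member probes. On slide 2, the only one with both strains, SHR 2-1 was set against 3 WKY arrays, and those differences, with no replicate in SHR, are given with several members.

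**Figure D1:**
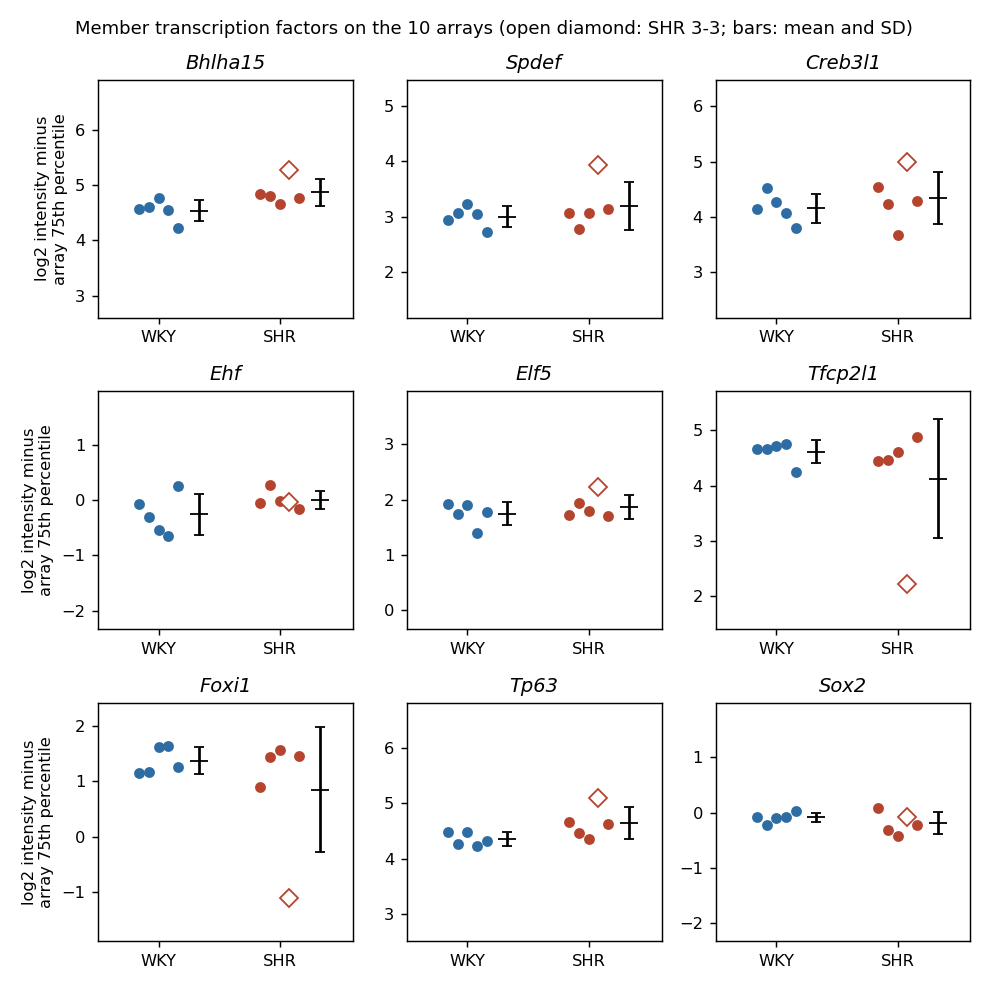
Log2 intensity minus the array's 75th percentile (vertical axes, all spanning the same range) of the 9 measured members on 5 WKY (blue) and 5 SHR (red) arrays, with the mean and SD of each strain as black bars. The open diamond is SHR 3-3, which lies lowest for Tfcp2l1 (2.22) and Foxi1 (−1.11) and highest for Bhlha15, Spdef, Creb3l1, Elf5 and Tp63.

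Among the acinar factors, Bhlha15 came closest to a difference between strains. Its values were 4.84, 4.80, 4.65, 5.27 and 4.76 on SHR 2-1, 2-3, 3-1, 3-3 and 3-4, and 4.56, 4.59, 4.76, 4.55 and 4.22 on WKY 1-2, 1-3, 1-5, 4-1 and 4-2. The ranges overlapped, since WKY 1-5 lay above SHR 3-1 and level with SHR 3-4. The log2 difference was 0.33 ± 0.13 SE (n = 5 per strain), a 1.26-fold higher mean in SHR with a 95% interval of 1.03 to 1.53-fold (limma adjusted p = 0.176, two-sided exact permutation p = 0.0159). Without SHR 3-3 it was 0.23 ± 0.11 (adjusted p = 0.250, exact permutation p = 0.0476), and on slide 2 alone it was 0.33. With the slide as a random block it was 0.34 ± 0.09 and passed (limma adjusted p = 0.0227). That fit called 1350 genes higher and 2101 lower of 14711.

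Spdef and Creb3l1 did not separate the strains. Spdef read 3.06, 2.78, 3.06, 3.93 and 3.14 on the SHR arrays in the same order, and 2.94, 3.06, 3.22, 3.06 and 2.72 on the WKY arrays. Apart from SHR 3-3, the SHR values lay inside the WKY range. The log2 difference of Spdef was 0.20 ± 0.18 SE (n = 5 per strain, 95% interval −0.20 to 0.59, limma adjusted p = 0.587) and became 0.01 ± 0.11 without SHR 3-3; its dimmer probe gave 0.10. Creb3l1 read 4.53, 4.23, 3.67, 4.98 and 4.29 on the SHR arrays and 4.14, 4.52, 4.26, 4.07 and 3.80 on the WKY arrays. SHR 3-1 was the lowest and SHR 3-3 the highest of all 10 arrays, so that the SHR values spanned the WKY range on both sides. Its log2 difference was 0.18 ± 0.21 SE (n = 5 per strain, 95% interval −0.27 to 0.64, limma adjusted p = 0.664) and 0.02 without SHR 3-3; on slide 2 alone it was 0.49. The spread of Creb3l1 among the other 4 SHR arrays (SD 0.36) was still larger than that of 93.2% of all genes, the widest of the members.

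The ETS factors Ehf and Elf5, which are neighbouring protein-coding genes in the RefSeq gene order, did not differ between strains past the threshold either. Ehf ranged from −0.16 to 0.27 in SHR and from −0.64 to 0.26 in WKY, with WKY 4-2 above the other 4 WKY arrays; the log2 difference was 0.26 ± 0.16 SE (n = 5 per strain, 95% interval −0.08 to 0.61, limma adjusted p = 0.379). The difference of Ehf was 0.27 without SHR 3-3, but 0.17 without WKY 4-1 and 0.39 without WKY 4-2. Elf5 ranged from 1.70 to 2.22 in SHR and from 1.40 to 1.91 in WKY, with a log2 difference of 0.12 ± 0.13 SE (95% interval −0.15 to 0.40, adjusted p = 0.629) and 0.04 without SHR 3-3; its dimmer probe gave 0.26 (adjusted p over all probes = 0.303).

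**Figure D2:**
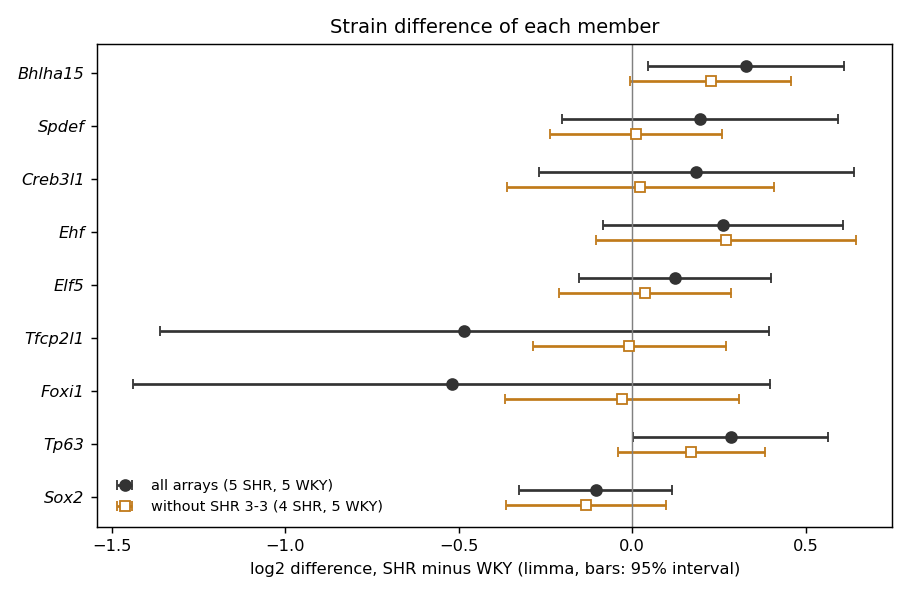
Log2 difference, SHR minus WKY (horizontal axis), of each member with its 95% interval from limma, over all 10 arrays (filled circles) and without SHR 3-3 (open squares). Without SHR 3-3 the intervals of Tfcp2l1 and Foxi1 narrow to −0.29 to 0.27 and −0.37 to 0.31, and those of all 9 members include 0.

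The duct factors Tfcp2l1 and Foxi1 had the widest intervals of the 9 members, and in both a single SHR array lay far below the rest. Tfcp2l1 read 4.44, 4.46, 4.61, 2.22 and 4.89 on SHR 2-1, 2-3, 3-1, 3-3 and 3-4, and 4.66, 4.67, 4.72, 4.75 and 4.24 on WKY 1-2, 1-3, 1-5, 4-1 and 4-2. SHR 3-3 was by far the lowest, and WKY 4-2 the lowest of the WKY arrays. Foxi1 read 0.90, 1.43, 1.56, −1.11 and 1.45 on the SHR arrays and 1.14, 1.17, 1.61, 1.64 and 1.26 on the WKY arrays. SHR 3-3 was again lowest, followed by SHR 2-1, and the other SHR arrays lay within the WKY range. The log2 difference between strains was −0.48 ± 0.40 SE for Tfcp2l1 (n = 5 per strain, 95% interval −1.36 to 0.39, limma adjusted p = 0.536) and −0.52 ± 0.42 for Foxi1 (−1.44 to 0.40, adjusted p = 0.523). Without SHR 3-3 both were close to 0, at −0.01 ± 0.13 for Tfcp2l1 and −0.03 ± 0.15 for Foxi1. On slide 2 alone, SHR 2-1 differed from the WKY mean by −0.13 for Tfcp2l1 and −0.60 for Foxi1.

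The second probes of these genes gave other strain values. The dimmer Tfcp2l1 probe had a log2 difference of 0.12 ± 0.25 SE (n = 5 per strain), opposite in sign to the brighter one. Its limma adjusted p over all probes was 0.831 and its exact permutation p 0.667. Without SHR 3-3 it had 0.37 (adjusted p = 0.181, exact permutation p = 0.0238). The dimmer Foxi1 probe had −0.37 ± 0.15 (limma adjusted p = 0.207, exact permutation p = 0.0159). Without SHR 3-3 this Foxi1 probe had −0.22 (adjusted p = 0.210, exact permutation p = 0.0238). On SHR 3-3 it read −4.13, against −3.54 to −3.24 on the other SHR arrays and −3.24 to −3.05 in WKY.

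The basal and progenitor factors followed no strain pattern past the threshold. Tp63 read 4.67, 4.46, 4.35, 5.09 and 4.62 on the SHR arrays and 4.48, 4.26, 4.48, 4.23 and 4.32 on the WKY arrays. The SHR values were mostly in the upper part of the range, with SHR 2-3 and 3-1 inside the WKY range. The log2 difference was 0.28 ± 0.13 SE (n = 5 per strain, limma adjusted p = 0.243, exact permutation p = 0.0476), a 1.22-fold higher mean in SHR, and 0.17 ± 0.10 without SHR 3-3 (adjusted p = 0.353). With the slide as a random block it was 0.28 ± 0.09 and passed (limma adjusted p = 0.0493), in the fit that called 1350 genes higher and 2101 lower of 14711. A second Tp63 probe, matched to another transcript accession of the gene, came nearest to the threshold of all 15 probes, with 0.46 ± 0.12 (limma adjusted p over all probes = 0.0577, exact permutation p = 0.0159, where 3.84% of all probes passed). That probe read −0.68, −0.42, −0.97, −0.71 and −0.40 on the SHR arrays and −0.88, −1.33, −1.07, −1.14 and −1.07 on the WKY arrays, with overlap between SHR 3-1 and WKY 1-2. Without SHR 3-3 its difference was 0.48 (adjusted p = 0.0612). Sox2 ranged from −0.42 to 0.08 in SHR and from −0.21 to 0.03 in WKY, with a log2 difference of −0.11 ± 0.10 (adjusted p = 0.598) (95% interval −0.33 to 0.12); it was −0.13 without SHR 3-3 and turned to 0.13 on slide 2 alone.

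The larger pattern in these genes lay within SHR, between array SHR 3-3 and the other 4. Against the average of the other 4, Tfcp2l1 was 5.20-fold and Foxi1 5.45-fold lower there (log2 −2.38 and −2.45). Both were below all 9 other arrays, a position that 15.6% of all genes had. A deviation downwards of 2-fold or more was found for 2 of 9 members, against 2.86% of all genes, and one upwards for 0 of 9, against 0.612%. On none of the other 9 arrays did a member differ by 2-fold from the rest of its strain; the largest such log2 difference was 0.95, of Tfcp2l1 on SHR 3-4, with SHR 3-3 among the arrays it was set against. Against its slide mates alone, SHR 3-3 was as far away, at −2.43 for Tfcp2l1 and −2.59 for Foxi1. The dimmer probes deviated less, by −1.27 for Tfcp2l1 and −0.79 for Foxi1, and were also below all 9 other arrays. This is 1 animal, so the difference is a description with no test.

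The acinar factors, but also the basal factor Tp63 and the ETS factor Elf5, lay on the opposite side on the same array. Spdef exceeded the average of the remaining SHR arrays by 0.92 on the log2 scale, Creb3l1 by 0.80, Tp63 by 0.57, Bhlha15 by 0.51 and Elf5 by 0.43, whereas Sox2 (0.14) and Ehf (−0.05) lay inside the range of the other arrays. These 5 members were above all 9 other arrays, a position that 29.8% of all genes had on SHR 3-3 and 45.0% of the brightest 10% of genes, to which all 5 belong. The size of this excess depended on the scaling, and with normexp Tp63 was no longer above all 9. With the authors' values, Spdef differed by 0.66, Creb3l1 by 0.44, Elf5 by 0.27, Tp63 by 0.21 and Bhlha15 by 0.15, beside a median over all genes of 0.04 instead of 0.13. The low values of Tfcp2l1 (−2.54) and Foxi1 (−2.51) were as large with the authors' values. The second Tp63 probe was at −0.09, and those of Spdef and Elf5 were at 0.46 and 0.34.

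**Figure D3:**
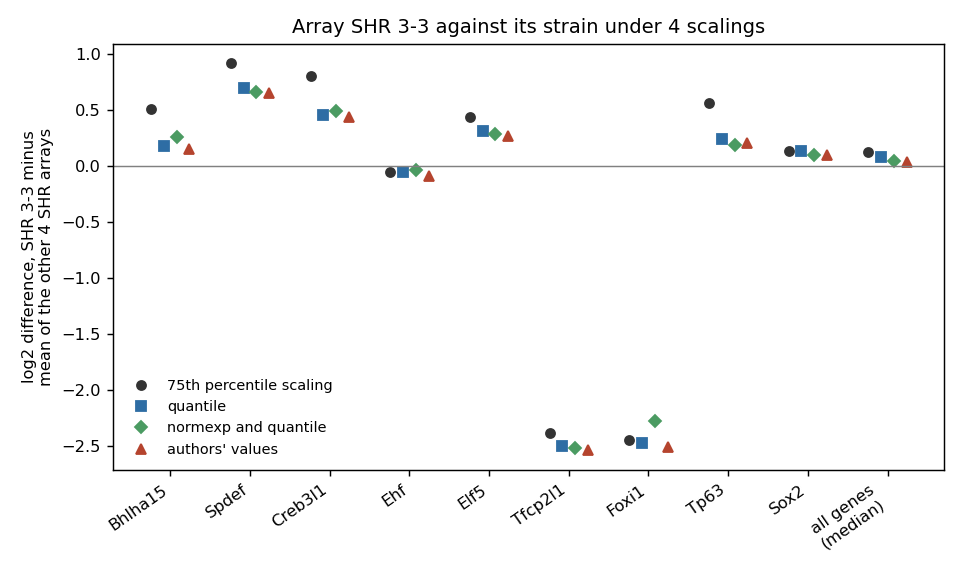
Log2 value on SHR 3-3 minus the average of its 4 strain mates (vertical axis) for each member and, at the right, for the median of all genes, under 4 scalings. Tfcp2l1 and Foxi1 stay between −2.28 and −2.54 under all 4, whereas Bhlha15 moves from 0.51 to 0.15 and Tp63 from 0.57 to values near 0.2.

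Several marker lists also had sums outside the range of the other arrays on SHR 3-3. Of 11 measured granular duct markers 7 were 2-fold or more lower there (median −1.47), and their summed level, in multiples of the array's 75th percentile, was 431 against 1161 to 1647 on the other SHR arrays and 1010 to 1146 in WKY. Of 14 duct epithelium markers 6 were at least 2-fold lower and 1, Kcnma1, was higher (median −0.53), with a sum of 82.3 against 96.3 to 119 on the other SHR arrays and 96.7 to 98.5 in WKY. The 12 measured acinar markers had a median of 0.21, near the 0.22 of the brightest 10% of genes and the 0.13 of all genes, and 4 of 12 were above all 9 other arrays, against 29.8% of all genes. Their sum was 1156, against 635 to 905 on the other SHR arrays and 517 to 594 in WKY, with Oprpn at 0.64 and Pip at 0.86. Those 2 genes are by far the brightest of the list (SHR means 8.60 and 8.26, next Slc12a2 at 5.72), so the sum mainly reflects them. The other genes of the list ran from −0.94 (Bpifa2) to 0.94 (Chrm3) on SHR 3-3, with Slc12a2 at 0.05. All measured granular duct, duct and acinar markers were well above background on all 10 arrays. Of 9 stromal, endothelial and fat markers 4 were 2-fold or more lower on SHR 3-3 (median −0.66; sum 10.0 against 12.7 to 14.8 on the other SHR arrays and 12.2 to 15.7 in WKY), among them Dcn (−2.16) and Col3a1 (−1.51), whereas the endothelial genes Pecam1 (0.45) and Cdh5 (0.23) were above all 9 other arrays and Plvap was at −0.048. The sum of the 8 myoepithelial markers was 21.5 (25.7 to 34.8 on the other SHR arrays, 23.7 to 27.6 in WKY). That of the 9 immune markers was 4.15 (4.91 to 6.65 and 7.74 to 9.58). That of the 6 parotid markers, of which Amy1 and Bpifa2 are also on the acinar list, was 895 (486 to 716 and 398 to 478). It mainly reflects the bright genes Car6 (0.53 on SHR 3-3) and Prh1 (0.93). Prb3 was at 0.24, Dnase1 at 0.12, Amy1 at −0.21 and Bpifa2 at −0.94, and the parotid list median was 0.18 beside 0.13 for all genes. The part of these cell types and of the lower signal of this array in the values of the members was not tested.

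Genes linked to the single factors were set beside them on the same array. Of 11 measured ionocyte genes, which are linked to Foxi1, 3 were at least 2-fold lower on SHR 3-3, among them the chloride channel gene Cftr (−2.56) and the channel subunit gene Bsnd (−2.38), with a list median of −0.58 and a sum of 8.50 against 19.3 to 28.1 on the other SHR arrays. The proton pump subunits Atp6v0d2 (−0.79), Atp6v1g3 (−0.72) and Atp6v1b1 (−0.48) lay less far below. The anion exchanger genes Slc26a4 (0.23) and Slc4a9 (0.15) and the ammonia transporter gene Rhcg (0.04) lay above 0. Such lower values were not particular to this list. Of the 14 duct epithelium markers (median −0.53) 6 were also at least 2-fold lower, such as Scnn1g (−2.49) and Krt7 (−2.20). Kcnma1 of that duct list was higher (1.19). The 8 Bhlha15 target genes had a median of 0.29 there, led by the secretory granule GTPases Rab3d (0.79) and Rab26 (0.67), and 4 of 8 were above all 9 other arrays, against 29.8% of all genes and 45.0% of the brightest 10%. Of 8 Spdef-linked mucous genes, with a list median of 0.06, Agr2, a protein disulphide isomerase of mucous cells, was at −1.20. It varied widely in both strains (SD 1.48 in SHR and 2.03 in WKY), and SHR 3-3 lay inside the range of the other arrays. The mucus protein gene Fcgbp was at 0.76, but its probe was dim (SHR mean −4.87) and above background on only 8 of 10 arrays.

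**Figure D4:**
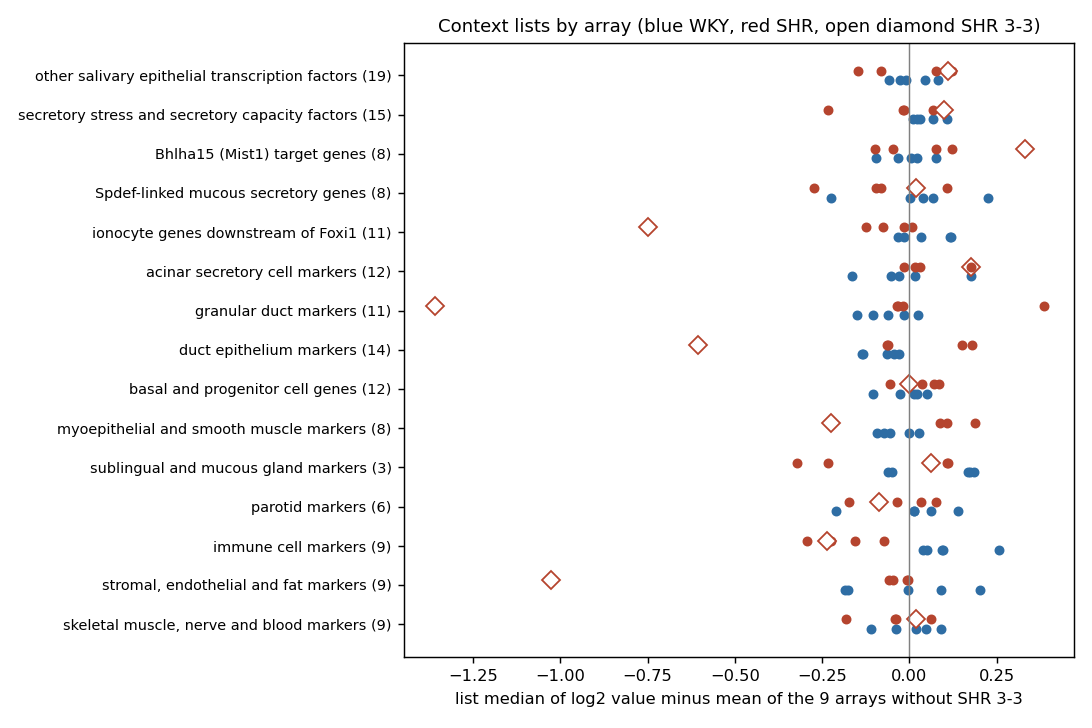
Median over each list of the log2 value minus its mean over the 9 arrays other than SHR 3-3 (horizontal axis), for 5 WKY (blue) and 5 SHR (red) arrays; the number of measured genes stands in parentheses and members are left out of the lists. The open diamond, SHR 3-3, lies apart from the other arrays to the left in the granular duct, duct, ionocyte and stromal lists.

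Between strains, the lists around the members are given by their calls, beside 4.36% of all genes. Among 19 other salivary epithelial transcription factors 1 was higher and 18 did not pass (median log2 difference 0.05): Etv1, an ETS factor, rose by 0.73 ± 0.12 SE (n = 5 per strain, limma adjusted p = 0.00482). Among 15 secretory stress factors 1 was lower and 14 did not pass (median −0.01): Creb3l4, a relative of Creb3l1, fell by 0.46 ± 0.11 (adjusted p = 0.0337). No gene passed among the 8 Bhlha15 targets (median 0.15; Rab3d 0.39, Tmed6 −0.36), the 8 Spdef-linked genes (−0.06; Tff2 −0.15, Gcnt3 −0.11), the 11 ionocyte genes (−0.23; Bsnd −0.56, Cftr −0.46) or the 12 basal and progenitor genes (0.03; Krt15 0.33, Perp −0.26). Several of these values rest on SHR 3-3. Without it the median of the Bhlha15 targets was 0.055 and that of the ionocyte genes −0.13, and Rab3d was at 0.23, Bsnd at −0.09 and Cftr, with its sign turned, at 0.05. Without that array Grhl2, a grainyhead-like factor, passed at 0.35 (limma adjusted p = 0.0447) and Gata6 at −0.48 (0.0487). The proton pump gene Atp6v1b1 also passed then, at 0.55 (0.0312). The Gata6 probe was dim (SHR mean −4.76) and above background on only 9 of 10 arrays. That of Tmed6 was dim as well (SHR mean −4.55).

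Among the cell type markers, 1 of 12 genes of the acinar list rose and 2 fell (median 0.18, and 0.10 without SHR 3-3). Which cells express a listed gene was not measured here. The submandibular gland protein gene Smgc fell by 4.10 ± 0.35 SE (n = 5 per strain, limma adjusted p = 2.3e-05), Prpmp5 fell by 1.73 ± 0.15 and the opiorphin precursor gene Oprpn rose by 0.61 ± 0.15. Oprpn was also above all 9 other arrays on SHR 3-3. None of 11 granular duct genes passed (−0.09; Klk1c12 −1.86, Egf −0.96); without SHR 3-3 their median turned to 0.08 and Egf was at −0.10. Of 14 duct genes the bicarbonate cotransporter Slc4a4 fell by 0.47 ± 0.10. No gene passed among 8 myoepithelial genes (median 0.05, Myh11 0.33, Actg2 0.23). The same held for 3 sublingual and mucous gland genes (median −0.15, Cst5 −0.38, Tff2 −0.15). Of these, Cst5 is also on the acinar list and Tff2 is also among the Spdef-linked genes. Nor did any of 9 muscle, nerve and blood genes pass (median −0.03, Ckm 0.49, Ahsp −0.36). Of 6 parotid genes Prb3 fell by 0.64 ± 0.12, of 9 immune genes Cd68, Aif1 and Ptprc fell, and of 9 stromal, endothelial and fat genes Plvap rose by 0.60 and Col1a1 fell by 0.79; without SHR 3-3 neither passed (adjusted p = 0.0544 and 0.0596). Without that array Krt7 (0.64) and Krt19 (0.62) of the duct list and Klk1c10 (0.80) and Klk1c12 (−0.84) of the granular duct list passed.

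For each member the 2 genes with the most similar profile were found by Pearson correlation of log2 values centred within strain over the 10 arrays, among 14680 genes. These are the highest of many correlations, and the arrays share slides and, for most members, the distance of SHR 3-3, so they are a description. Tfcp2l1 was closest to the duct chloride channel subunit gene Bsnd and the kallikrein gene Klk1c9 (both r = 0.99; 0.85 and 0.87 without SHR 3-3). Foxi1 was closest to Prdx5, a peroxiredoxin, and Fa2h, a fatty acid hydroxylase (both r = 0.98; 0.80 and 0.77 without SHR 3-3). The other members' closest genes changed less when that array was left out. Bhlha15 was closest to Prrt1 and Gpld1 (both r = 0.99), Spdef to Nr2f2 and Golga2 (both 0.98), Creb3l1 to Tbc1d22b (0.97) and Swap70 (0.96), and Tp63 to Opalin and Nrgn (both 0.98). Ehf was closest to Prepl (0.98) and Ppp2r1b (0.96), Elf5 to Slc46a1 (0.96) and Adam30 (0.94), and Sox2 to Or52m2 (0.97) and Lrrc8e (0.96).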

How the data were processed

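Gene expression was measured on 10 one-colour Agilent arrays, 5 of SHR and 5 of WKY; per the labels' protocols, Trizol RNA was amplified and labelled with Cy3. Per the file headers, Agilent Feature Extraction 11.0.1.1 read the scans, subtracted background and removed trends, so that the deposited processed signal is an intensity not normalised between arrays. The authors' deposited log2 values have equal quartiles in all columns, and the steps behind them are not stated in the labels or headers.

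The log2 intensity minus the array's 75th percentile over non-control probes was used, outlier spots were left out, and spots of a probe were averaged. Probes above background on at least 5 of 10 arrays were kept (29266 of 30367). Symbols came from RefSeq accessions (GRCr8 table); 18005 probes had 1 symbol, 0 several and 12362 none. The brightest kept probe stood for each of 14711 genes. Strains were compared with limma (lmFit, eBayes, two-sided, Benjamini-Hochberg over all genes, threshold 0.05) and, for single members, an exact permutation test, whose smallest p is 0.00794. Arrays with one scan time were taken as 1 slide. The labels do not pair rats across strains. Each rat had its own array, so p-values measure the spread between these rats together with that of their arrays and slides. The number of arrays limits the precision.

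The members and gene lists were chosen with earlier results of these data known. Named were all members, in each list up to 4 genes past the threshold or otherwise the 2 with the largest differences, and 2 genes of similar profile per member; the genes named on SHR 3-3 or without it were chosen after their values were seen. The values of 1 listed gene are not reported here. Alternatives were normexp (offset 50; median signals) with quantile normalisation, quantile normalisation, median scaling, the authors' values, other filters and probe rules, robust variances with an intensity trend, array weights, slide and title-number blocks, slide 2 alone, at least 1.5-fold, and leaving out each array. The fit was tested on simulated data. R 4.3.3, limma 3.58.1, data.table (1.17.8), matplotlib 3.10.9, pandas 2.3.3 and numpy 2.4.6 under Python 3.11.15 were used.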

Additional observations from a re-analysis of the deposited data

Results flagged for a closer look

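In groups of 5 arrays, a lowest or highest value was marked when its gap to the next value took up more than 0.710 of the group's range, which chance gives in about 1 of 20 groups; 3 of 30 groups of member probes were marked. Tfcp2l1 on SHR 3-3 was at 2.22, far below the 4.44 to 4.89 of the other SHR arrays. Foxi1 on SHR 3-3 was at −1.11, below the 0.90 to 1.56 of the other SHR arrays. Tfcp2l1 on WKY 4-2 was at 4.24, below the 4.66 to 4.75 of the other WKY arrays, a gap of a much smaller size.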

How the results depend on the processing

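Leaving aside the fixed slide block and slide 2 alone, which rest on SHR 2-1, members past the threshold numbered 0 under all alternatives run except the slide as a random block. There 2 passed, Bhlha15 (0.34 ± 0.09 SE, limma adjusted p = 0.0227) and Tp63 (0.28, adjusted p = 0.0493). That fit called 1350 genes higher and 2101 lower of 14711 tested, against 222 and 419 in the main fit. Over the 24 alternatives of each member, 8 of 9 members kept the sign of their difference; Sox2 was at 0.13 with the slide as a fixed block and on slide 2 alone, which rest on SHR 2-1. Over all genes, 222 were higher and 419 lower (65.4% lower); the share lower was 55.6% with normexp, 54.5% with quantile normalisation, 53.5% with median scaling and 50.5% with the authors' values. Higher genes numbered 351 with quantile normalisation, 423 with the authors' values and 336 with median scaling; a fixed slide block left 12 higher and 32 lower, slide 2 alone 14 and 38, with the title number as a random block 669 and 1110, at 1.5-fold or more 106 and 258, and over every probe 376 and 747. Without 1 array, 125 to 237 genes were higher, 218 to 512 lower and 0 members passed; the counts moved by over 1.5 times without SHR 3-4 (144 higher), WKY 1-2 (132 and 239), WKY 1-3 (125 and 218) and WKY 4-1 (144 and 272). The causes were not tested. With the mean of a gene's probes, SHR 3-3 differed by −1.82 for Tfcp2l1 and −1.62 for Foxi1. Leaving out 1 array moved the list medians of other epithelial transcription factors between −0.054 and 0.10, of secretory stress factors between −0.12 and 0.061 and of parotid genes between −0.35 and −0.039; medians also changed sign for the granular duct (−0.20 to 0.08), duct (−0.14 to 0.10), Spdef-linked (−0.14 to 0.042) and muscle, nerve and blood lists (−0.11 to 0.012), and ran from 0.055 to 0.20 for Bhlha15 targets, −0.29 to −0.13 for ionocyte genes and 0.08 to 0.22 for acinar genes. No paired analysis was possible because the strains share no replicate numbers.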
